A study of Mus musculus with 1 sample.

Results

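The genes described here encode the nuclear-encoded subunits of the mitochondrial respiratory chain. Members were protein-coding genes whose GENCODE M21 symbol carries one of the family prefixes of complex I (Nduf), complex II (Sdh), complex III (Uqcr and Cyc1), complex IV (Cox4 to Cox8) or complex V (Atp5), with symbols of pseudogenes left out. This rule gave 87 of the 54532 genes listed, of which 21995 were protein-coding. Complex I held 38 members, complex II held 4, complex III held 9, and complexes IV and V held 18 each. The rule used gene names only and no measured level. The study examined the stress sensor gene Gadd45g in myeloproliferative neoplasms, blood cancers that overproduce mature myeloid cells. RNA was sequenced here from 1 library, MPN_Ctrl, made from bone marrow cells of wild type C57BL/6 mice and labelled as c-kit+ cells from the Lin-cKit+Sca1- gate. This gate holds myeloid progenitors that carry the receptor Kit and lack surface proteins of mature blood cells. The number and age of the mice behind the library were not given in the sources used here. With 1 library there was no replicate, so no difference below was tested, and the intervals given cover counting error only.

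The respiratory chain sits in the inner mitochondrial membrane. Complexes I and II pass electrons from NADH and succinate to ubiquinone, complex III hands them to cytochrome c, and complex IV, cytochrome c oxidase, passes them to oxygen. Complexes I, III and IV pump protons as they do so, and complex V, ATP synthase, lets the protons flow back to make ATP. Most subunits are encoded in the nucleus and imported, while a small core is encoded in mitochondrial DNA. In the bone marrow, red cell precursors rely on mitochondria for heme synthesis, and maturing neutrophils are known for low oxidative metabolism.

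Levels were deposited as FPKM, a fragment count scaled to exon length and to library size. Multiplying each value by the length of all the exons of the gene returned whole fragments for 20547 of the 21322 genes above 0. Fragments were thus known for most genes and rounded for the rest. Known and rounded fragments summed to 17113323, above the library total of 15783891 that the whole values imply. Genes of myeloid progenitors were present, but not alone. Of 7 such markers 4 reached 10 FPKM, among them Mpo at 434 FPKM and Gata1 at 50.3 FPKM. Gata2 stood at 6.82 FPKM and Cd34 at 5.22 FPKM, and all 5 T cell markers were under 10 FPKM. Kit, the receptor used for the gate, stood at 7.17 FPKM, whereas all 8 mature neutrophil markers, all 6 erythroid markers and all 5 B cell markers were above 10 FPKM, with medians of 3352, 3918 and 123 FPKM. The levels below therefore belong to the mixture in the tube, and in such a bulk sample fewer cells of a type and less RNA per cell cannot be told apart. The part of mature cells in the members' levels was not tested.

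Respiratory chain genes were widely detected. Of the 87 members, 79 reached 1 FPKM, a level reached by 46.8% of protein-coding genes. At 10 FPKM the count was 71 members, against 21.2% of protein-coding genes, and at 100 FPKM it was 8 members, against 2.06%. The median member stood at 30.8 FPKM, with quartiles of 15.2 and 56.8 FPKM. This placed the median member at the 92.3rd percentile of protein-coding genes and 3.56 times the median of those at 1 FPKM or more. Together the members held 0.951% of the summed FPKM of the library and 0.664% of its known and rounded fragments.

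**Figure D1:**
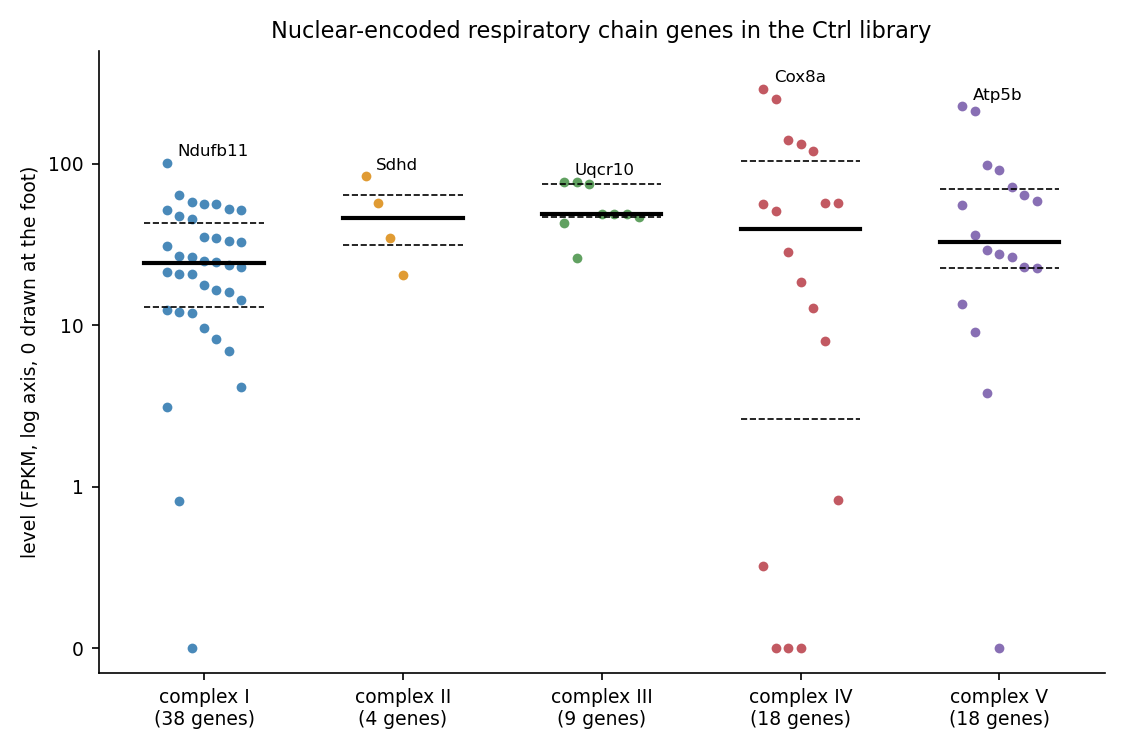
Level of each of the 87 members by complex, in FPKM on a log axis, with genes at 0 drawn at the foot; solid lines mark the median and dashed lines the quartiles. Complex III is the most even, from 26.1 to 77.2 FPKM, and complex IV the most spread, from 0 to 291 FPKM.

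The 8 members above 100 FPKM came from 3 of the complexes. Cox8a (chr19:7215153-7217616), for a small cytochrome c oxidase subunit, was highest at 291 FPKM. Cox6a1 stood at 251 FPKM and Cox4i1 at 140 FPKM, followed by Cox7a2l at 131 FPKM and Cox6b1 at 119 FPKM, so 5 of the 8 belonged to complex IV by name. Atp5b at 228 FPKM and Atp5a1 at 213 FPKM, the catalytic beta and alpha subunits of ATP synthase, came from complex V. The only complex I gene among them was Ndufb11 at 102 FPKM, an accessory subunit of the membrane arm.

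The 8 members under 1 FPKM were mostly forms known from other tissues. Cox8b, Cox8c, Cox7b2 and Ndufa4l2 were at 0 fragments, which allows up to 0.528, 0.415, 0.351 and 0.174 FPKM respectively, the level of 3 fragments. Cox4i2 stood at 0.322 FPKM on 4 fragments and Cox7a1 at 0.829 FPKM on 7 fragments. The other two were of a different kind. Ndufb2, an accessory subunit of complex I, stood at 0.811 FPKM, but on 72 fragments (95% Wilson interval, 0.644 to 1.02 FPKM). The annotation also carries a second Atp5o identifier (ENSMUSG00000116933), at 0 fragments, all of whose exon bases overlapped exons of other genes.

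Complex I oxidizes NADH and is the largest of the complexes. Its 38 genes had the lowest median, 24.1 FPKM, with quartiles of 13.0 and 43.1 FPKM, and 36 of them reached 1 FPKM. The 7 core genes, which carry the flavin and the iron-sulfur clusters that conduct electrons, had a median of 32.7 FPKM against 22.9 FPKM for the other 31 genes, and both ranges overlapped widely. Among the core genes, Ndufs8 stood at 56.1 FPKM and Ndufv1, which binds NADH and flavin, at 33.4 FPKM. Ndufv2 stood at 32.7 FPKM, Ndufs7 at 24.7 FPKM and Ndufs3 at 17.8 FPKM. Ndufs1, which holds more iron-sulfur clusters than any other subunit, was the lowest core gene at 9.57 FPKM (9.05 to 10.1). Its annotated exons were also the longest of any member, 8086 bases, of which the principal transcript, the one marked as main by the APPRIS annotation, uses 2590. The counting interval of Ndufs1 was narrow beside the 5.85-fold range between Ndufs8 and Ndufs1, which was 3.10-fold over the principal transcript. Values over the principal transcript divide all fragments of a gene, from any of its exons, by the length of that transcript.

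The accessory genes counted in complex I spanned the whole range of the complex. Ndufb11 led at 102 FPKM (96.4 to 107), then Ndufa2 at 64.1 FPKM (59.1 to 69.6) and Ndufa8 at 58.3 FPKM (54.4 to 62.5). At the foot, Ndufa12 stood at 3.11 FPKM on 77 fragments, above Ndufb2 at 0.811 FPKM and Ndufa4l2 at 0. Ndufa4l2 and Ndufa4, at 56.5 FPKM, were counted here by symbol only, and another grouping below places both in complex IV. Ndufab1, the mitochondrial acyl carrier protein that also serves fatty acid synthesis, stood at 4.11 FPKM (3.75 to 4.51). A low FPKM did not always mean few fragments, as Ndufab1 drew 447 fragments over 6883 exon bases while Ndufa1 drew 314 over 419 and stood at 47.5 FPKM.

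Complex II is the succinate dehydrogenase shared with the TCA cycle, and it has no mitochondrially encoded subunit. Its 4 genes all passed 10 FPKM. The flavoprotein gene Sdha stood at 57.3 FPKM (55.5 to 59.2) and the iron-sulfur gene Sdhb at 34.7 FPKM (32.8 to 36.7). The membrane anchors, which bind heme and ubiquinone, were the highest and the lowest of the complex. Sdhd stood at 83.4 FPKM (79.4 to 87.5) and Sdhc at 20.6 FPKM (19.4 to 21.8), a ratio of 4.05 that became 3.96 when each gene was divided by its principal transcript. Anchors that pair in the protein thus differed more in mRNA level than the catalytic genes Sdha and Sdhb, whose ratio was 1.65.

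Complex III, the cytochrome bc1 complex, was the most even. All 9 genes lay between 26.1 and 77.2 FPKM, a range of 2.96-fold against 32.7-fold for the complex I genes at 1 FPKM or more. The Rieske iron-sulfur protein gene Uqcrfs1 stood at 76.5 FPKM (72.9 to 80.3) and the cytochrome c1 gene Cyc1 at 48.8 FPKM (46.5 to 51.2). The core protein genes Uqcrc1 and Uqcrc2 stood at 48.7 FPKM (47.0 to 50.4) and 47.0 FPKM (44.9 to 49.2), and their counting intervals overlapped each other and that of Cyc1. Uqcr10 and Uqcrh, both small subunits, were among the 3 highest at 77.2 and 74.7 FPKM. Uqcrq was lowest at 26.1 FPKM, after Uqcrb at 43.0 FPKM. Its place turned with the length used, since over its principal transcript of 405 bases, against 1831 exon bases, Uqcrq came to 118 FPKM and Uqcr10 to 104 FPKM.

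Complex IV transfers electrons to oxygen with catalytic subunits that are all encoded in mitochondrial DNA, so its nuclear genes encode the surrounding subunits. Its 18 genes had a median of 39.5 FPKM, and their quartiles of 2.62 and 104 FPKM were the widest. Besides the 5 genes above 100 FPKM, Cox7b, Cox7a2 and Cox7c lay between 56.4 and 57.2 FPKM, with overlapping intervals. Cox5b stood at 50.6 FPKM and its partner gene Cox5a, both of which bind the matrix side of the enzyme, at 28.4 FPKM. Over the principal transcript this gap closed, with Cox5b at 92.9 FPKM and Cox5a at 92.6 FPKM. Cox6c stood at 18.6 FPKM. Cox7a2l, named for its likeness to Cox7a2, encodes a factor that joins complexes III and IV into supercomplexes.

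Complex V joins a catalytic head in the matrix to a rotating membrane ring. The 5 head genes had a median of 91.2 FPKM, against 55.2 FPKM for the 3 subunit c genes. The 5 peripheral stalk entries had a median of 27.5 FPKM, which counts the second Atp5o identifier at 0 and would be higher without it. Over the length of the principal transcript this order turned, with 196 FPKM for subunit c, 150 FPKM for the head and 121 FPKM for the stalk. The beta gene Atp5b stood at 228 FPKM (224 to 231) and the alpha gene Atp5a1 at 213 FPKM (209 to 217), ahead of the gamma gene Atp5c1 at 91.2 FPKM (87.9 to 94.7). The delta gene Atp5d followed at 71.5 FPKM (68.6 to 74.6) and the epsilon gene Atp5e at 35.9 FPKM (33.7 to 38.2). The order set the alpha and beta genes, whose proteins are present in more copies per head than the other head subunits, at the top. Divided by the principal transcript length, Atp5d and Atp5e stood at 148 and 150 FPKM, close to 149 FPKM for Atp5c1, while Atp5b and Atp5a1 stood at 503 and 271 FPKM.

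The stalk and membrane genes of complex V overlapped the head genes in level. Atp5h, for a subunit of the peripheral stalk that holds the head still, stood at 97.4 FPKM (93.5 to 102), and Atp5f1, for the stalk's b subunit, at 58.3 FPKM. Atp5o and Atp5j followed at 27.5 and 26.3 FPKM. Of their exon bases, 47.9% and 12.7% overlapped exons of other genes, and the part of this overlap in their levels was not tested. Atp5l, for the membrane subunit g, stood at 13.5 FPKM and the subunit c gene Atp5g1 at 9.13 FPKM. Atp5s, at 3.79 FPKM, bears the family prefix but is not a structural subunit, and was counted with complex V only by its name.

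Several subunits are encoded by alternative genes, and in 7 of the 8 such sets 1 gene held 90.3% of the level or more as deposited. The low partners are best known from striated muscle, brown fat, lung and testis. Cox4i1 held 99.8% of its set, 436 times above Cox4i2 (counting interval 170 to 1602), a form known from lung and from low oxygen. Cox6a1 stood 31.3 times above the muscle form Cox6a2 (25.3 to 39.3). Cox7a2 stood 68.7 times above the muscle form Cox7a1 (33.2 to 171). Cox8a was at least 552-fold higher than the muscle and brown fat form Cox8b, for which 3 fragments in this library were taken as the bound. Cox7b was at least 163-fold higher than the testis form Cox7b2 and Ndufa4 at least 326-fold higher than Ndufa4l2, a form known from low oxygen, with the same bound of 3 fragments. Over the principal transcript the ratio was 837 for Cox4i1 and at least 849 for Ndufa4, and it moved by less than 1.5 times in the other sets named here.

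**Figure D2:**
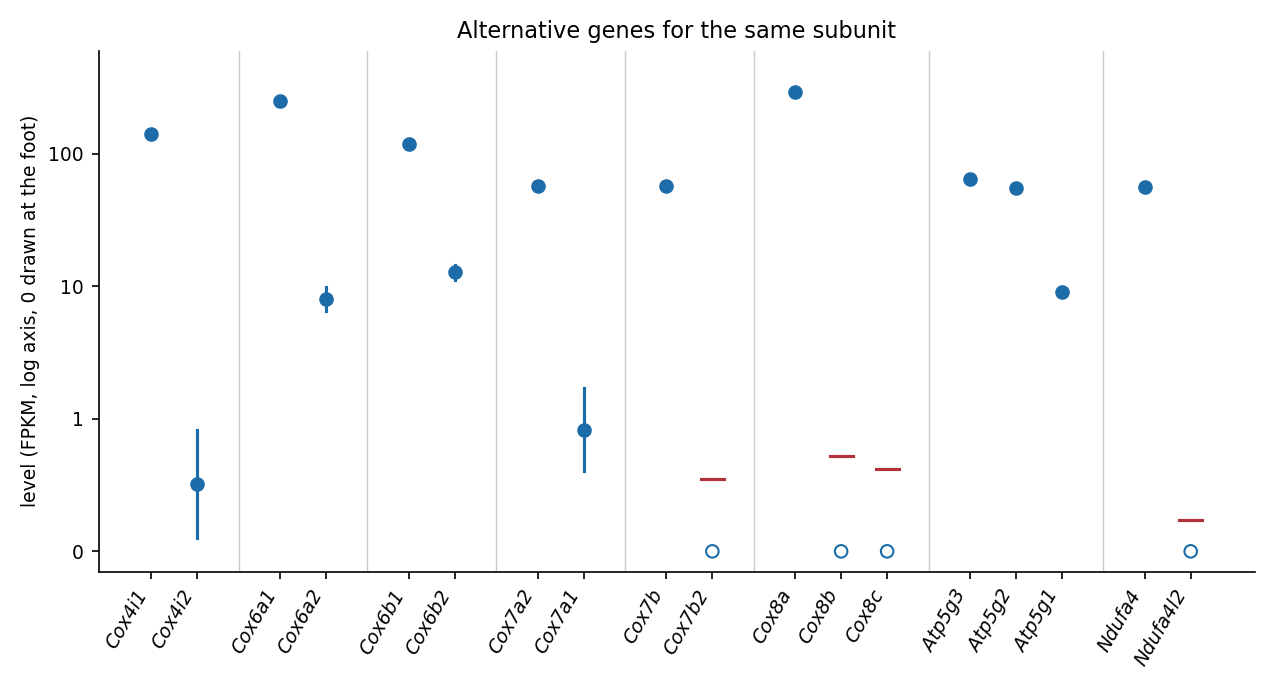
Levels of alternative genes for the same subunit in the Ctrl library, in FPKM on a log axis; bars are 95% intervals of counting error, open circles are genes at 0 fragments and red dashes the level that 3 fragments would give. In every set but subunit c (Atp5g1 to Atp5g3) the leading gene stands at least 9.31 times above the next on this scale, and at least 4.47 times over the principal transcript.

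The partner genes were not equally silent. Cox6b2, known from testis, stood at 12.8 FPKM on 224 fragments (11.2 to 14.6), and its set was the least one-sided of complex IV, with 90.3% for Cox6b1. Over the principal transcript that share was 81.7%, and the ratio of Cox6b1 to Cox6b2 went from 9.31 to 4.47. Cox6a2 stood at 8.01 FPKM on 86 fragments (6.49 to 9.89), and 10.3% of its exon bases overlapped exons of other genes. Marker genes of the tissues these forms are known from had few fragments or none. Of the striated muscle markers 4 of 5 were at 0 and the other, Acta1, stood at 0.0412 FPKM. Of the testis markers Tnp1 and Prm2 were at 0 and Prm1 stood at 0.888 FPKM on 8 fragments, and of the brown fat markers Cidea was at 0 and Ucp1 stood at 0.0387 FPKM. The part of such tissues in the levels of Cox6b2 and Cox6a2 was not tested.

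The sequences before the starts of 2 of these gene pairs are shown because the pairs differ so strongly in level. Each runs 5′ to 3′ over the 250 bases before the start in the RefSeq annotation of GRCm38.p6, with every CpG, the dinucleotide that marks CpG island promoters, in capitals.
Cox7a2, chr9:79759854-79760103, minus strand: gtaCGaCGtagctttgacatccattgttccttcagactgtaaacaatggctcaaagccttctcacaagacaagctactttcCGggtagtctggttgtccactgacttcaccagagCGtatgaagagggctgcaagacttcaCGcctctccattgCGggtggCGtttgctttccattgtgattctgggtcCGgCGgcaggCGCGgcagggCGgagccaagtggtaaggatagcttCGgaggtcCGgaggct
Cox7a1, chr7:30183921-30184170, plus strand: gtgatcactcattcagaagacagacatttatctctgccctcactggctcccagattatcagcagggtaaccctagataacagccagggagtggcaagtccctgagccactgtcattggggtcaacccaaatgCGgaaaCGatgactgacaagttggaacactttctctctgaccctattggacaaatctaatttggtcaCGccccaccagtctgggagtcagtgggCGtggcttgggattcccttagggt
Cox8a, chr19:7217617-7217866, minus strand: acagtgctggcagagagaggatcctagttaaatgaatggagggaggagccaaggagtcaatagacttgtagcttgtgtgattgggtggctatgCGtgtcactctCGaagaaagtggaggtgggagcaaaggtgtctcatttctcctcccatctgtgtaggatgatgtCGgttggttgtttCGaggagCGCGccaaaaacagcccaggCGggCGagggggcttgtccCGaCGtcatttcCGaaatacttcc
Cox8b, chr7:140900447-140900696, minus strand: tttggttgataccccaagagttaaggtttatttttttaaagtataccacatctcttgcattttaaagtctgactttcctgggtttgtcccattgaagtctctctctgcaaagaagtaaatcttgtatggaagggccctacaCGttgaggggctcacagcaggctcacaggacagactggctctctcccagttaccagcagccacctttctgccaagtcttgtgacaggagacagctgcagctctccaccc
Cox7a2 at 57.0 FPKM had 14 CpG and Cox7a1 at 0.829 FPKM had 4, and Cox8a at 291 FPKM had 11 and Cox8b at 0 had 1. Cox6b1 and Cox6b2 followed the same order with 14 and 8. Cox7b and Cox7b2 did not, with 5 and 9. Over the members with a RefSeq promoter, the median was 15 CpG for the 65 at 1 FPKM or more and 6.5 for the 4 under it, beside 16 for 8231 protein-coding genes at 1 FPKM or more and 6 for all 27025 promoters.

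Subunit c, the proton-carrying ring of ATP synthase, was the exception among the sets. Atp5g3 stood at 64.3 FPKM (61.6 to 67.0), Atp5g2 at 55.2 FPKM (52.4 to 58.1) and Atp5g1 at 9.13 FPKM (8.48 to 9.83), or 49.98%, 42.9% and 7.10% of their sum. All 3 genes encode the same mature protein. The end of each coding sequence is shown because the 3 genes differ in its letters while they encode the same residues. Each line holds the last 90 coding bases before the stop codon in the GENCODE M21 transcript on GRCm38, 5′ to 3′, with the positions that differ among the 3 genes in capitals.
Atp5g1, chr11:96073107-96073196, minus strand: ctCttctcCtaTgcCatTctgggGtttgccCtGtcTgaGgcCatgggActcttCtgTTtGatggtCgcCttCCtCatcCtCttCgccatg
Atp5g2, chr15:102663017-102663106, minus strand: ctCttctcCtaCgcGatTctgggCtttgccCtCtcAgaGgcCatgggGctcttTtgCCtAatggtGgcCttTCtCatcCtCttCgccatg
Atp5g3, chr2:73908596-73908685, minus strand: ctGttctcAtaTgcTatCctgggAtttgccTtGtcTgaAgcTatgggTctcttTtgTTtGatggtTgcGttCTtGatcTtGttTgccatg
Of the 90 bases, 24 differed. Over the last 225 coding bases, 57 differed, and every one of the 75 codons still gave the same residue in all 3 genes. Identity over these bases was 84.9% between Atp5g1 and Atp5g2 and 78.7% between Atp5g2 and Atp5g3.

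The order of Atp5g2 and Atp5g3 was not firm. With each gene divided by its principal transcript length, Atp5g2 came to 210 FPKM, Atp5g3 to 196 FPKM and Atp5g1 to 75.3 FPKM, and the share of Atp5g3 fell below that of Atp5g2 at 40.8%. Fragments without any length gave Atp5g3 50.5%. Atp5g1 was lowest on all of these scales. All of the 50-base windows of the Atp5g2 mRNA also occurred in transcripts of other genes, as did 66.0% of those of Atp5g1 and none of those of Atp5g3. The other genes were pseudogenes such as Gm10175 and Gm10039, and not the other subunit c genes.

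Ordered by median level, the complexes ran III, II, IV, V and I, at 48.8, 46.0, 39.5, 32.6 and 24.1 FPKM. The ranges overlapped in every pair. Without genes under 1 FPKM complex IV came first at 57.0 FPKM, and with Ndufa4 and Ndufa4l2 counted in complex IV and the other proteins left out it took the fourth place at 28.4 FPKM, under complex V at 35.9 FPKM. On the deposited scale complexes I and III were the only pair whose quartiles lay apart, with 75% of the complex III genes at 47.0 FPKM or more and 75% of the complex I genes at 43.1 FPKM or less. Complex II had only 4 genes, so its place in the order rested on few values. By summed FPKM the shares of the members' total were 26.9% for complex I, 4.80% for complex II, 12.0% for complex III, 30.0% for complex IV and 26.2% for complex V.

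The order also depended on the gene length behind the FPKM. The deposited values were divided by the length of all annotated exons of a gene, and for 35 of the 87 members this was over 2 times the length of the principal transcript. Complex V had the largest such ratio, with a median of 2.79 against 1.64 for all members and 1.43 for protein-coding genes at 1 FPKM or more. Divided by the principal transcript, the medians were 149 FPKM for complex V, 87.1 for IV, 76.5 for III, 74.7 for II and 43.8 for I. Complex V thus moved from the fourth place to the first, and complex I stayed last. On this scale the quartiles of complex I lay apart from those of complex V as well as complex III. Both scales divide the same fragments, counted over all annotated exons. Fragments outside the principal transcript were not taken out, so that scale can overstate a gene that has them. Where the fragments lay along each gene was not known, so neither scale could be preferred.

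**Figure D3:**
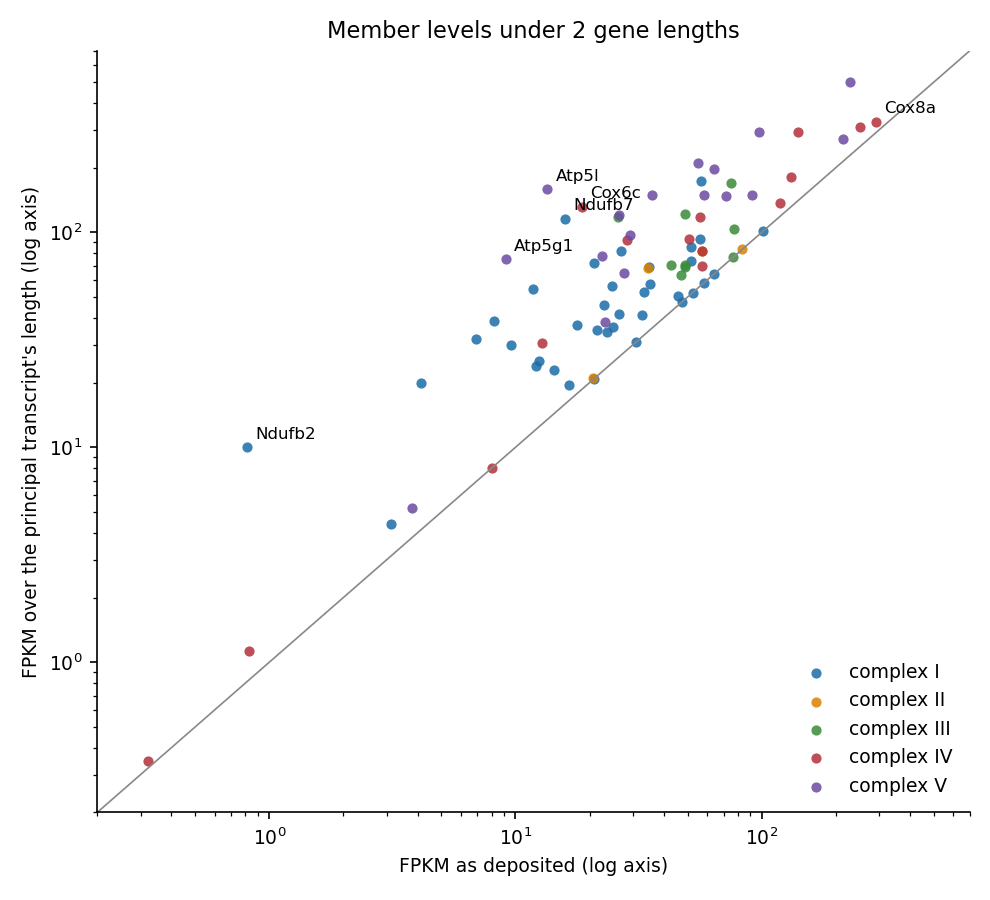
FPKM as deposited (x axis) against FPKM over the length of the principal transcript (y axis) for each member above 0, both on log axes, coloured by complex; the line marks equal values. Ndufb2 and Atp5l lie farthest above the line, at ratios of 12.4 and 11.8. Both axes use the same fragments, counted over all annotated exons.

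Single members moved more than the medians. Ndufb2 had 5628 exon bases and a principal transcript of 455, so its 0.811 FPKM became 10.03 FPKM. Atp5l went from 13.5 to 159 FPKM, Atp5g1 from 9.13 to 75.3 FPKM, Ndufb7 from 15.96 to 116 FPKM and Cox6c from 18.6 to 132 FPKM. Cox7a1 at 1.13 FPKM also passed 1 FPKM, while Cox4i2 stayed under it at 0.349 FPKM. Across the members, Spearman's rho between FPKM and exon length was -0.10 (n = 87), a description over genes of 1 library.

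Many of the mRNAs share sequence with other genes. In 29 of the 79 members at 1 FPKM or more, over 10% of the 50-base windows of the principal transcript also occurred in transcripts of another gene, a share of 36.7% against 19.6% of protein-coding genes at that level. Fragments from such windows cannot be assigned by sequence alone. Processed and other pseudogenes were the partner for 17 members, with 29 pseudogenes in all, of which 23 carried fragments. Their fragments summed to 1673, beside 18984 on the 17 members.

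In 4 members a pseudogene stood above the parent in FPKM. Gm10221 stood at 88.8 FPKM and its parent Atp5l at 13.5 FPKM, Gm10039 at 42.7 FPKM and Atp5g1 at 9.13 FPKM, Gm15920 at 22.5 FPKM and Ndufa12 at 3.11 FPKM, and Ndufab1-ps at 12.3 FPKM and Ndufab1 at 4.11 FPKM. These parents are the 2 lowest complex V subunit genes with fragments and 2 of the lowest complex I genes. In fragments the order turned round for all but Ndufa12, with 433 on Gm10221 against 1369 on Atp5l, 277 against 708 on Atp5g1 and 91 against 447 on Ndufab1, but 143 on Gm15920 against 77 on Ndufa12. Adding the pseudogene fragments to Atp5l or Atp5g1 was not done. Gm10250, a pseudogene that shares 66.6% of the windows of Atp5h, stood at 38.1 FPKM. How the shared fragments were split between parent and pseudogene was not tested.

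The mitochondrially encoded partners were higher on the same scale. Their 13 genes had a median of 443 FPKM, led by mt-Co1, the catalytic subunit of cytochrome c oxidase, at 6379 FPKM. The lowest was mt-Atp8, a short subunit of ATP synthase, at 3.42 FPKM on 11 fragments. By complex, the mitochondrially encoded median was 25.3 times the nuclear median in complex I, 5.48 times in complex IV and 2.25 times in complex V, and the single gene of complex III, mt-Cytb at 2705 FPKM, was 55.4 times above it. In complex I, 5 of 7 mitochondrially encoded genes lay above the highest nuclear gene, and in complex V none of 2 did. Those 2 were mt-Atp6 at 143 FPKM and mt-Atp8, so the complex V median is a midpoint between values far apart. Of their exon bases, 6.46% and 21.1% overlapped exons of other genes. The part of this overlap in the complex V ratio was not tested. The gaps depended on the length used for the nuclear genes. Over the principal transcript the ratios were 13.9 in complex I, 35.4 in complex III and 2.48 in complex IV, and in complex V the nuclear median, 149 FPKM, was 2.03 times the mitochondrially encoded one.

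**Figure D4:**
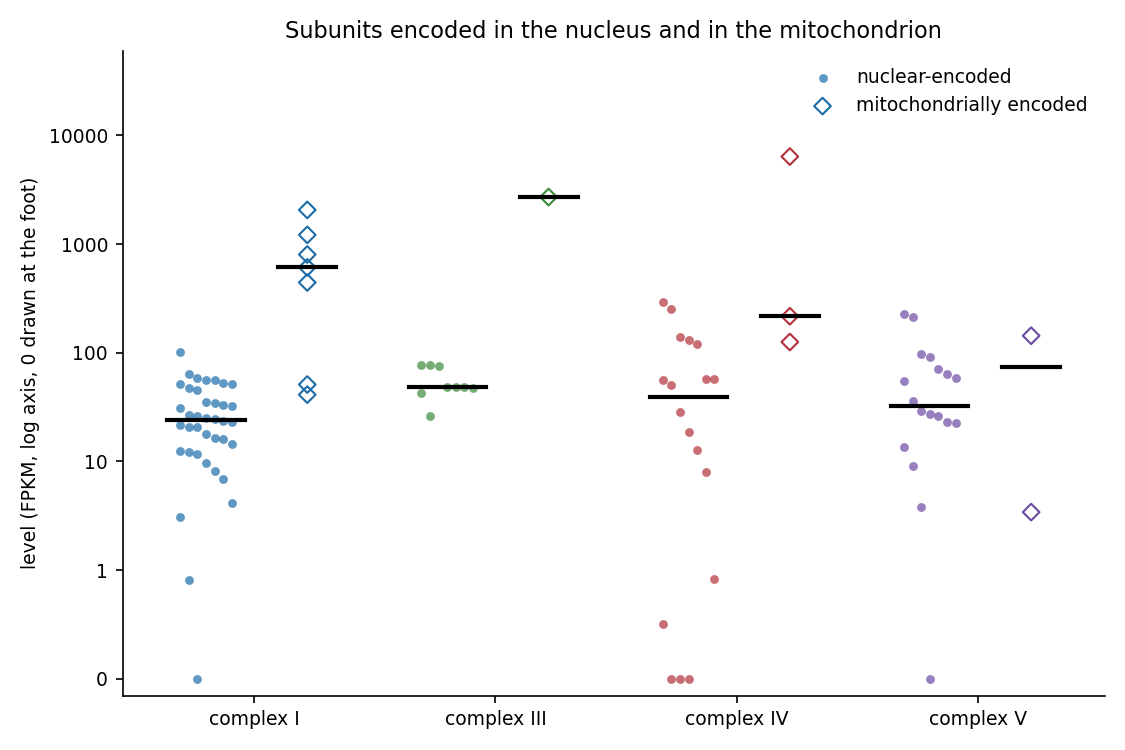
Levels of nuclear-encoded (dots) and mitochondrially encoded (diamonds) subunit genes by complex, in FPKM on a log axis with 0 at the foot; lines mark medians. On the deposited scale the gap between medians is 25.3-fold in complex I and 2.25-fold in complex V, and over the principal transcript it is 13.9-fold in complex I and turned round in complex V. The mitochondrially encoded median of complex V is the midpoint of mt-Atp6 and mt-Atp8.

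Several of these genes share nearly their whole sequence with annotated genes of the nuclear genome. In mt-Co2, mt-Co3, mt-Atp6, mt-Nd3 and mt-Nd4l, 98.0% to 99.9% of the windows also occurred in an unprocessed pseudogene on chromosome 1, a nuclear copy of mitochondrial DNA. These 5 genes ranged from 41.1 to 216 FPKM, and the other 8 had a median of 1008 FPKM, with mt-Atp8 as the lowest. Among these 8, mt-Nd4 and mt-Co1 still shared 62.2% and 51.1% of their windows with other genes. No window of mt-Atp8 occurred in an annotated transcript of another gene. Nuclear copies without an annotated transcript were not searched, so sharing of mt-Atp8 with such a copy could not be seen. The chromosome 1 copies of the 5 genes carried fragments of the same order as the genes. Gm28661 had 2374 fragments where mt-Co2 had 2337, Gm10925 had 2301 where mt-Atp6 had 1541, and Gm28437 had 1953 where mt-Co3 had 1553. The medians of complexes IV and V rest on these genes, and the part of the shared fragments in the smaller gaps was not tested.

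Other gene lists of mitochondrial metabolism had lower medians than the members. Cycs, the somatic cytochrome c that links complexes III and IV, stood at 23.9 FPKM, and its testis form Cyct was at 0. The 13 TCA cycle enzyme genes had a median of 22.5 FPKM, from Suclg2 at 6.14 to Mdh2 at 62.9 FPKM, and all passed 1 FPKM. The 78 mitochondrial ribosomal protein genes had a median of 9.69 FPKM. Cytosolic ribosomal protein genes, which are also short and shared with pseudogenes, had a median of 216 FPKM (83 genes).

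Assembly factors, which build the complexes without remaining in them, were lower still. Their medians were 4.53 FPKM for complex I (15 genes), 4.37 for complex II (4), 4.71 for complex III (6), 4.43 for complex IV (19) and 10.9 for complex V (3), each under the median of the subunit genes of the same complex. In complexes II and III every factor lay below every subunit gene on the deposited scale, with the highest factors, Sdhaf2 at 14.6 FPKM and Uqcc2 at 23.5 FPKM, under Sdhc at 20.6 FPKM and Uqcrq at 26.1 FPKM. In complex IV the ranges overlapped, with Cox14 at 52.1 FPKM and Sco2 and Pet117 at 0. However, 91.8% of the exon bases of Sco2 and 100% of those of Pet117 overlapped exons of other genes. The counting options were not given, so a 0 there does not show absence. Cox20, Sdhaf1 and Ndufaf2 were also overlapped over 91.1%, 69.6% and 65.6% of their exon bases. The part of such overlap in the low levels of assembly factors was not tested.

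**Figure D5:**
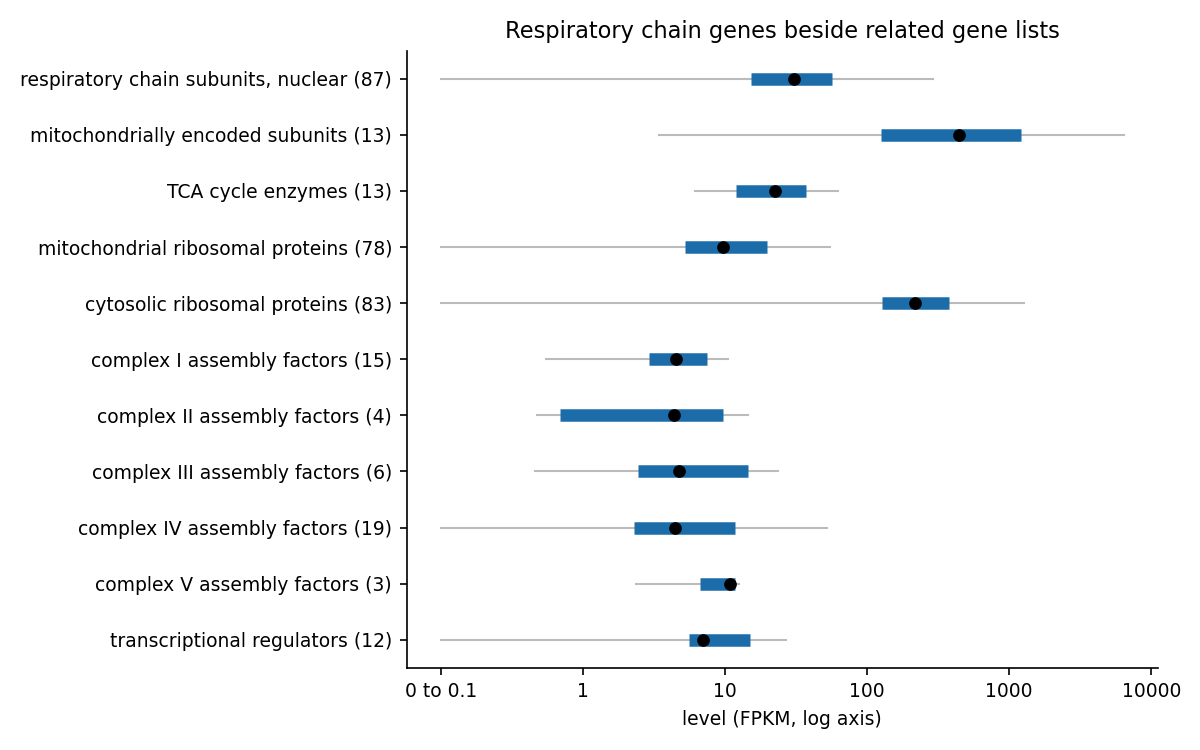
Median (dot), quartiles (bar) and range (line) of each gene list in FPKM on a log axis, with the number of genes in brackets; values under 0.1 are drawn at the left edge. Subunit genes at a median of 30.8 FPKM lie above the assembly factors, whose medians run from 4.37 to 10.9 FPKM.

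Of the 12 transcriptional regulators of the respiratory chain, 10 reached 1 FPKM and the median was 6.96 FPKM. Yy1, a zinc finger factor, was highest at 26.8 FPKM, Sp1 stood at 19.8 FPKM, and Gabpa and Nrf1, which bind many promoters of respiratory genes, at 13.8 and 8.34 FPKM. Esrra, the estrogen-related receptor alpha, stood at 18.6 FPKM. The coactivator genes Ppargc1a and Ppargc1b, best known from muscle and brown fat, stood at 0.0192 FPKM on 2 fragments and 0.826 FPKM on 52. The related Pprc1 stood at 5.66 FPKM.

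Members often start next to another gene. In 19 of the 79 members at 1 FPKM or more, or 24.1%, a protein-coding gene on the other strand started within 1000 bases upstream, against 11.2% of protein-coding genes at that level. The closest were Ndufa7 and the ribosomal protein gene Rps28 at 10 bases, Ndufb9 and Tatdn1 at 18, and Sdha and Ccdc127 at 29. Complex I gave 9 of the 19, complexes II, III and V gave 3 each, and complex IV gave only Cox4i1.

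RefSeq promoters, 300 bases from 250 before to 50 after the start, were matched by symbol to 69 of the 87 members. Among the 18 not matched were Atp5a1, Atp5mpl, Cox4i1, Cox4i2, Cox6a2, Cox6c, Cox8c, Cyc1, Ndufa2, Ndufa4l2, Ndufb9, Ndufs1, Sdhc, Uqcrb, Uqcrc2, Uqcrq and the second Atp5o identifier. Letters of 6 motifs were searched on both strands, and matches of different motifs overlapped in 1 member. The motif of the factor NRF1, GCGCANGCG, was present in 19 of the 69 members (27.5%), against 6.47% of all promoters and 14.97% of those of protein-coding genes at 1 FPKM or more. The ETS motif CCGGAAG, the kind GABP binds, was present in 15 (21.7%), against 9.12% and 20.1%. The motif AAGGTCA of estrogen-related receptors was present in 8 (11.6%), against 4.66% and 3.06%. The Sp1 motif GGGCGG was present in 29 (42.0%), against 35.9% and 65.2%, and TATAAA in 7 (10.1%), against 14.2% and 6.62%. The NRF1 and ERR letters were thus commoner in members than in expressed genes at large, the Sp1 letters rarer and the ETS letters near the same share, as counts without a test.

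The highest members with these motifs before the start are shown, with NRF1, ETS and ERR matches in capitals. Both are the 250 bases before the RefSeq start on GRCm38.p6, 5′ to 3′.
Cox6a1, chr5:115348959-115349208, minus strand: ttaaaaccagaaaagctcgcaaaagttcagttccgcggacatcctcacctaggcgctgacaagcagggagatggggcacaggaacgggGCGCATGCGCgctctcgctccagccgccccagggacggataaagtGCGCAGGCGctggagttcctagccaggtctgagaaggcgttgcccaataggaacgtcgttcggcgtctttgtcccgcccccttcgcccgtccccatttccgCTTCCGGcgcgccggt
Atp5g3, chr2:73911327-73911576, minus strand: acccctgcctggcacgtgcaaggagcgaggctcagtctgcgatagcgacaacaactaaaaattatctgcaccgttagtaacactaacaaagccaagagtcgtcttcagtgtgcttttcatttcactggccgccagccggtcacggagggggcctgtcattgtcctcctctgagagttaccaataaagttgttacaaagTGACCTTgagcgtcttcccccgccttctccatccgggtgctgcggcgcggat
Cox6a1, at 251 FPKM, was the only member of complex IV with the NRF1 letters, out of 13 matched. Atp5g3, at 64.3 FPKM, holds the reverse complement of the ERR letters. Of the 8 members with these letters 4 belonged to complex V and 3 to complex I, including Ndufb2 at 0.811 FPKM.

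The motif AAGATGGC of YY1 was present in 9 of the 69 members (13.0%), against 2.88% of all promoters and 5.31% of those of expressed protein-coding genes. Complex I held 7 of the 9 and complex V the other two. Unlike the other motifs, it was found in no member wholly before the start. The sites are shown because their position was so regular, each with up to 10 bases on either side, 5′ to 3′ on the strand of the gene, on GRCm38.p6, with the motif in capitals.
Ndufa3, chr7:3617385-3617412, plus strand: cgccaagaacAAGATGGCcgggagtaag
Ndufa9, chr6:126849098-126849125, minus strand: attgtgggagAAGATGGCggccgccgtc
Ndufb8, chr19:44555393-44555414, minus strand: ggagaaggtgAAGATGGCtgcc
Ndufc1, chr3:51408916-51408943, minus strand: cctgcggaacAAGATGGCgccgtccgta
Ndufs4, chr13:114388045-114388069, minus strand: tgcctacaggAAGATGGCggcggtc
Ndufs6, chr13:73328433-73328459, minus strand: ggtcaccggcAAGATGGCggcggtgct
Ndufs7, chr10:80249463-80249490, plus strand: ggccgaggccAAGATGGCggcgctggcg
Atp5j2, chr5:145191501-145191528, minus strand: ccaggacttcAAGATGGCgtcactcggt
Atp5f1, chr3:105959249-105959276, minus strand: tgtgcgagcgGCCATCTTgctcctgccc
In 8 of the 9 the ATG within the motif was the annotated start codon of the gene, and the motif began 23 to 39 bases into the transcript. Atp5f1 held the reverse complement across the start itself. Over all promoters with the motif, 44.9% had it only reaching past the start. The levels of the 9 members ran from 8.18 FPKM in Ndufc1 to 58.3 FPKM in Atp5f1, with a median of 24.7 FPKM beside 35.5 FPKM for matched members without it.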

How the data were processed

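RNA was measured in 1 library (MPN_Ctrl, group Ctrl). The authors deposited FPKM per Ensembl gene. The submitters' processing notes name HISAT2 2.0.5 and featureCounts 1.5.0-p3 and mm10, without a role. Counting options, strand and annotation release were not given in the sources used here. GENCODE M21 gene names were joined by gene ID (37 IDs had none). FPKM multiplied by the union of annotated exons gave whole fragments, within 0.01, for 96.4% of the genes above 0, at a library total of 15783891. The rest, including 6 members (Cox8a, Cox7a2l, Ndufa7, Ndufs8, Ndufv1 and Ndufv3), were given no interval. These 6 members lie on chromosomes 17 and 19, and their fragments are rounded values. The recovered fragments sum to more than that total, for a reason not given in the sources used here. Recovery was tested on simulated data. The 95% Wilson intervals and the bound of 3 fragments cover counting error only; PCR duplicates are not independent molecules. The members and gene lists were chosen with earlier results of these data known, and complexes were assigned by symbol prefix. Named genes were the core subunits, paralog sets, the 3 highest and 3 lowest of each complex, all members under 1 FPKM and the extremes of each list. Other genes named for gene length, pseudogenes, neighbours or motifs were chosen after their values were seen. Sharing was counted over 50-base windows of the principal transcript found in any GENCODE transcript of another gene. No test was possible with 1 library, so complexes were described by medians, quartiles and ranges. Alternatives changed the length, the summary, the scaling total, the detection level and the grouping. Scripts ran in Python 3.11.15 with pandas 2.3.3 and numpy 2.4.6, intervals used scipy 1.17.1, and plots used matplotlib 3.10.9. The Gadd45g-deficient samples of the study were not analysed here. The values of 1 member are not reported here by name.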

Additional observations from a re-analysis of the deposited data

Results flagged for a closer look

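Genes with the symbols of the family but left out of the members also carried fragments. Ndufb1-ps, annotated as a bidirectional promoter lncRNA, had 374 fragments and stood at 20.6 FPKM (18.6 to 22.7), a level inside the range of the complex I members. The processed pseudogenes Ndufab1-ps, Ndufb4c, Atp5l2-ps and Ndufs6b had 91, 11, 7 and 4 fragments, each over the bound of 3 fragments set for genes at 0. With no control library, no background level was available for these genes.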

How the results depend on the processing

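No paired analysis was possible because there was 1 library and no test, and leaving out a replicate was not possible either. Of 69 values under other settings, 54 moved by less than 1.5 times, the bound used in place of a replicate spread. Part of this count was fixed in advance. Changing the scaling total multiplied every FPKM by the same 1.35 or 1.04. Paralog sets whose other genes had 0 fragments stayed at 100%, and complexes II and III had no gene under 1 FPKM to leave out. The count is therefore not a measure of how firm the values are. Dividing by the longest protein-coding transcript gave medians of 36.6 FPKM for complex I, 74.7 for II, 70.3 for III, 85.7 for IV and 101 for V, so complex III went from the first place to the fourth. Dividing by the shortest principal transcript, an alternative chosen after seeing the data, gave 43.8 for I, 74.7 for II, 76.5 for III, 87.1 for IV and 149 for V, and turned the lead in subunit c from Atp5g3, at 40.8%, to Atp5g2. These shifts follow from dividing the same fragments by shorter lengths. Means in place of medians were 68.0 FPKM for complex IV, 59.4 for V, 54.5 for III, 49.0 for II and 28.9 for I, which put IV and V ahead of III. Without genes under 1 FPKM complex IV came first at 57.0 FPKM, and with Ndufa4 and Ndufa4l2 moved to it and the other proteins left out it took the fourth place at 28.4 FPKM. Complex I was lowest in all of these settings. The ratio of the members' median to that of all protein-coding genes was 51.4, but 3.56 against those at 1 FPKM or more, 17.4 against all genes above 0 and 23.6 in fragments. Leaving the 10 most abundant genes out of the total multiplied every FPKM by 1.35 and changed no order. Counting error is small for most members, but for genes under 10 fragments it spans several-fold.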

Other observations

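Related subunit genes outside the symbol rule were also measured. Atpif1, the inhibitor of ATP synthase, stood at 71.1 FPKM (67.8 to 74.7), and Usmg5, a small membrane subunit of ATP synthase, at 86.8 FPKM. Both were above the deposited median of the complex V members by name, 32.6 FPKM. Over the principal transcript that median was 149 FPKM, a scale not given for Atpif1 and Usmg5. Dmac2, a factor for complex I assembly, stood at 8.77 FPKM.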
